A study of Ginkgo biloba with 9 samples.

Results

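In leaves of Ginkgo biloba, 74 of 41309 listed genes stood higher, and about equally high, at both of the denser plantings. RNA was sequenced from the leaves of 2-year-old trees of the cultivar Fozhi, grown in a nursery for leaf harvest. The control planting (CK) stood at 20 plants per square metre, the moderate one (MD) at 40 and the high one (HD) at 80, and each has 3 libraries. All groups share the cultivar, the age and the site type, and the labels leave unsaid if each library is its own tree or a pool. Any error given below is therefore the spread between libraries, which may be technical. The study's title names leaf yield and the accumulation of active compounds as its subject.

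The members were selected on the measured values themselves, as group means of log2(FPKM + 1), where FPKM is the authors' count of fragments per kilobase of gene, scaled by library size. A gene had to reach 1 FPKM in at least 3 libraries, which 19854 genes did. Its mean had to stay under 1000 FPKM, and at each density at least 1 library had to be above 0, which left 19692. From these, 388 genes stood at least 1 unit higher in MD than in CK, and 583 at least 1 unit higher in HD than in CK. Of the 140 genes that did both, 75 had MD and HD within 0.4 of each other. In 74 of these, all 3 CK libraries lay below all 6 libraries of the denser plantings. The members are 19.1% of the genes that were 1 unit higher in MD and 12.7% of those that were 1 unit higher in HD. Because the rule used all 3 differences between the densities, their sizes describe the members and support nothing.

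Crowded plants shade each other, and the light that passes through leaves is poor in red relative to far-red. In flowering plants such as Arabidopsis, phytochromes sense this ratio and change the growth of stems and leaves, and neighbours also compete for water and nutrients. Ginkgo leaves are harvested for flavonol glycosides and for terpene trilactones, the ginkgolides and bilobalide. Which of these processes the members belong to is not known here, since the table gives identifiers without gene names, and pathway genes or leaf markers could not be looked up. For the same reason 2 members are named by identifier and the others are given by rank, where rank 1 is the largest mean of the 2 differences from CK.

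As a group, the members stood at nearly the same height in all 6 libraries of the denser plantings. The median member differed from its CK mean by -0.041, 0.0012 and 0.022 on the log2(FPKM + 1) scale in the CK libraries 1 to 3. In the MD libraries this difference was 1.34, 1.33 and 1.30, and in the HD libraries 1.32, 1.32 and 1.37. The rule fixes this separation from CK and the nearness of MD and HD. At least 1 unit above the CK mean were 0, 2 and 0 members in the CK libraries, 69, 65 and 68 in the MD libraries, and 70, 70 and 73 in the HD libraries. For all tested genes the median of the same difference lay between -0.0015 and 0.0031 in every library. In these bulk samples, more cells that express a gene and more RNA per cell cannot be told apart. Both differences use the same CK libraries, so a response to the denser plantings and a low level particular to the CK plants cannot be told apart either.

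**Figure D1:**
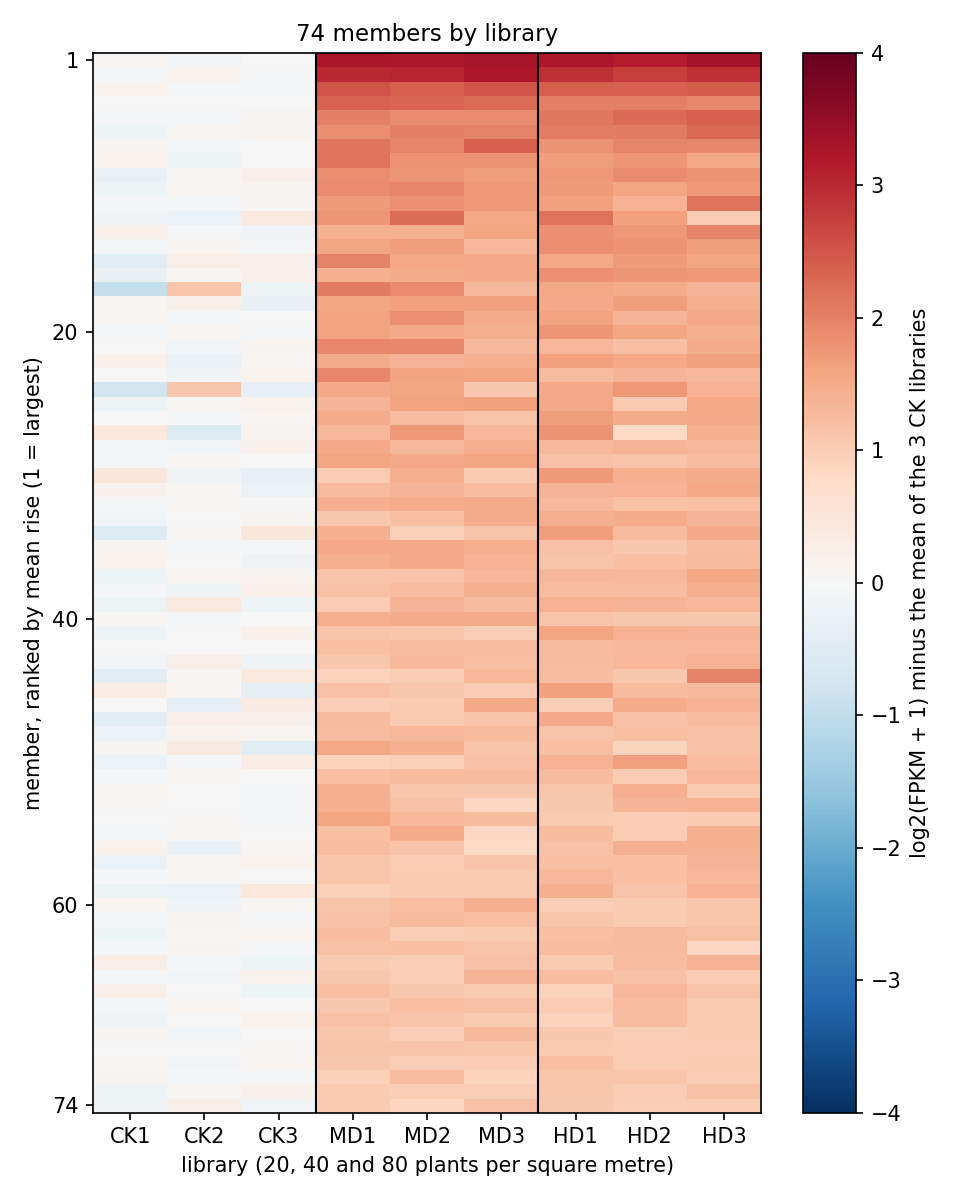
Each row is one of the 74 members, ordered from the largest to the smallest mean rise, and each column is a library. Colour gives log2(FPKM + 1) minus the mean of the 3 CK libraries. All 6 MD and HD columns lie above 0 in all rows, while the CK columns are pale apart from a few rows, among them ranks 17 and 24 in CK2.

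Summed over the members, the level was 804, 933 and 852 FPKM in the CK libraries, 2482, 2480 and 2360 FPKM in the MD libraries, and 2333, 2233 and 2330 FPKM in the HD libraries. The CK sums lay far below the others, and the rule sets CK lower in both these sums and the shares below. All MD sums were above all HD sums. That order of MD and HD was narrow, with 2360 FPKM in MD3 against 2333 FPKM in HD1. It was lost when the most abundant member was left out, and other members were not left out singly. Without the most abundant member the sums were 2060, 2046 and 1923 FPKM in MD and 1991, 1904 and 2005 FPKM in HD, which overlapped. As a share of the summed FPKM of all genes, the members held 0.0790% ± 0.00587 of the total in CK, 0.225% ± 0.00639 of it in MD and 0.230% ± 0.00574 in HD (SD over 3 libraries). The summed FPKM of all genes was lower in HD, and the mean share was slightly higher in HD than in MD. By library the shares overlapped, at 0.229%, 0.229% and 0.218% in MD and 0.234%, 0.224% and 0.233% in HD. The 6 most abundant members made up between 48.4% and 54.9% of the members' sum in every library.

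The rule caps the difference between HD and MD but sets no upper limit on the rise over CK, and the rises covered a wide range. On the log2(FPKM + 1) scale the median member was 1.28 higher in MD than in CK (range 1.01 to 3.26) and 1.34 higher in HD than in CK (range 1.03 to 3.23). In plain ratios of mean FPKM, the median was 2.90-fold in MD over CK (2.03 to 29.95) and 3.06-fold in HD over CK (2.13 to 27.8). Most differences were modest. The mean of the 2 log2 differences was under 1.25 in 30 members, from 1.25 to under 1.5 in 22, from 1.5 to under 2 in 15, and at least 2 in 7. The denser libraries together averaged at least 4 times the CK level in 22 members and at least 10 times in 5.

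**Figure D2:**
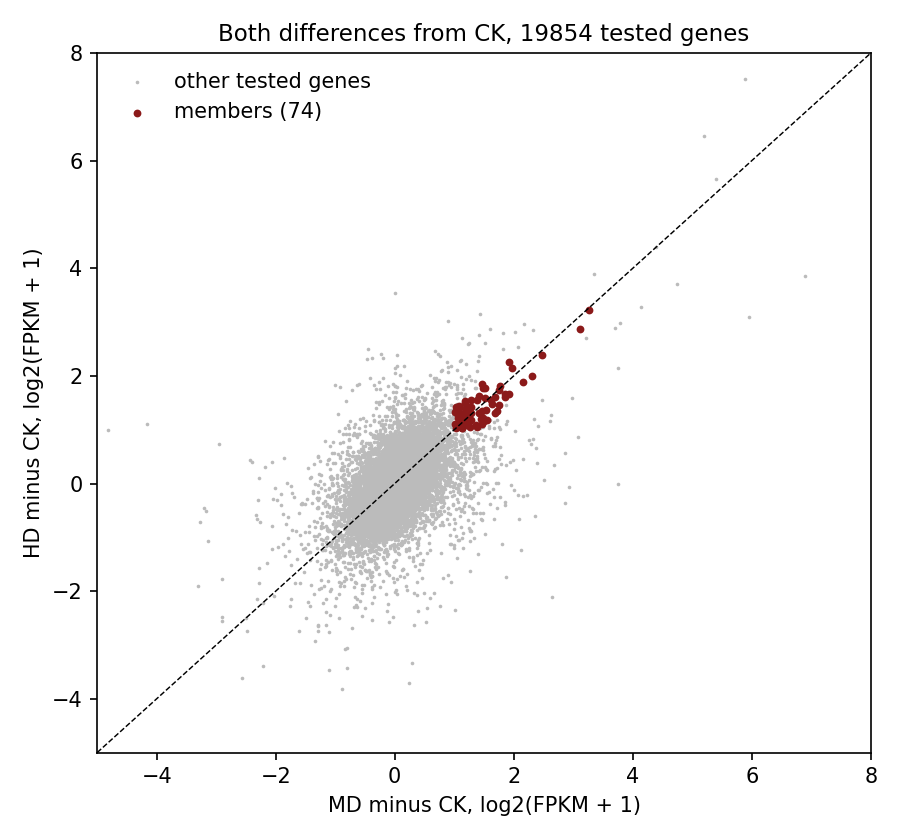
Each point is a tested gene, with MD minus CK on the horizontal and HD minus CK on the vertical axis, both on the log2(FPKM + 1) scale. The dashed line marks equal differences. The members, in dark red, lie along it from about 1 up to 3.26 and 3.23, because the rule keeps MD and HD within 0.4.

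The member with the largest mean rise was Gb_06976, chosen for that. Its level was 0.598, 0.425 and 0.555 FPKM in the CK libraries, 13.7, 13.4 and 13.8 FPKM in the MD libraries, and 13.4, 12.4 and 14.1 FPKM in the HD libraries. The MD and HD values overlapped, and all of them were far from CK. The mean of Gb_06976 was 0.526 ± 0.0898 FPKM for CK, 13.6 ± 0.243 FPKM for MD and 13.3 ± 0.892 FPKM for HD (SD over 3 libraries). Against CK, the ratio of means was 25.9 in MD and 25.3 in HD, and the log2(FPKM + 1) differences were 3.26 and 3.23. Its read numbers, worked out from the FPKM steps, were 12, 10 and 12 in CK, 216, 291 and 247 in MD, and 270, 253 and 246 in HD. The lowest of the denser libraries held 20.7 times the FPKM of the highest CK library. HD and MD differed by -0.032 on the log2 scale (HD minus MD), well within the spread of the HD libraries.

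Named as the most abundant member of the denser plantings, Gb_02979 ranked 40 of 74 by the size of its rise. It had 159, 151 and 154 FPKM in the CK libraries, 422, 433 and 437 FPKM in the MD libraries, and 342, 329 and 325 FPKM in the HD libraries. No 2 densities overlapped, and HD stood between CK and MD. The mean of Gb_02979 was 155 ± 3.80 FPKM for CK, 431 ± 7.93 FPKM for MD and 332 ± 8.68 FPKM for HD (SD over 3 libraries), or 2.79 times CK in MD and 2.15 times CK in HD. HD was at 0.772 times the MD mean, a log2 difference of -0.37, which is near the limit of 0.4 that the rule allows. A gene can thus count as raised alike and still differ clearly between MD and HD.

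**Figure D3:**
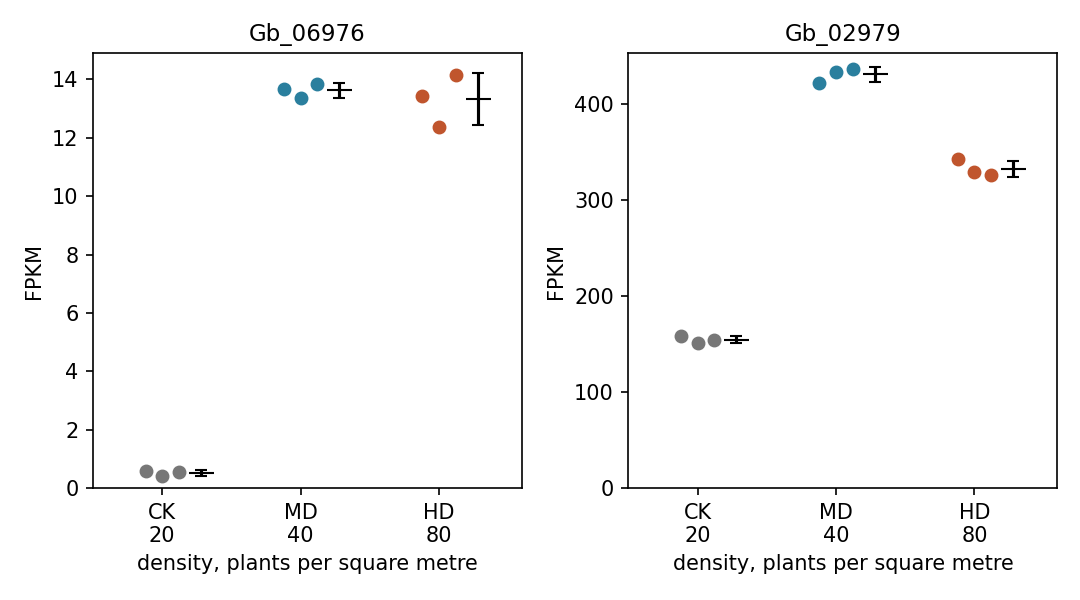
FPKM of Gb_06976 (left) and Gb_02979 (right) by density, with CK at 20, MD at 40 and HD at 80 trees to the square metre. Points are libraries, and the bars beside them are the mean and SD of 3. Gb_06976 stays below 1 FPKM in CK and between 12.4 and 14.1 in all denser libraries, while Gb_02979 peaks in MD and stands between CK and MD in HD.

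The other 6 members with a mean rise of at least 2 covered a wide range of levels. Rank 2 had 1.19, 1.57 and 1.21 FPKM in CK, 17.9, 18.3 and 21.0 FPKM in MD, and 16.4, 14.6 and 16.6 FPKM in HD. Rank 3 had 0.298, 0.127 and 0.138 FPKM in CK, 5.80, 5.26 and 5.80 FPKM in MD, and 5.16, 5.17 and 5.33 FPKM in HD. Rank 3 has the largest ratios of mean FPKM, 29.95 in MD and 27.8 in HD over CK, and these rest on 12 CK reads in all. Rank 4 was better covered, with 12.8, 12.7 and 13.1 FPKM in CK, 69.6, 68.0 and 64.4 FPKM in MD, and 55.5, 55.4 and 52.0 FPKM in HD. Its CK libraries held 783 reads, and all HD values lay below all MD values. Rank 5 leaned the other way, with 0.453, 0.422 and 0.611 FPKM in CK, 5.02, 4.48 and 4.54 FPKM in MD, and 5.47, 6.15 and 6.89 FPKM in HD. Rank 6 was abundant, at 35.1, 41.2 and 42.3 FPKM in CK, 147, 164 and 159 FPKM in MD, and 165, 170 and 199 FPKM in HD. In ranks 5 and 6 every HD library was above every MD library. Rank 7 had 0.947, 0.707 and 0.769 FPKM in CK, 6.92, 6.0 and 8.52 FPKM in MD, and 5.20, 5.93 and 5.87 FPKM in HD, all HD values below all MD values.

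In 11 members every CK library was under 1 FPKM. In all 11, every denser library was at 1 FPKM or above, which the rule favours by asking for a rise of at least 1 unit. The share of all tested genes with this pattern was not counted. Their means ran from 0.183 to 0.829 FPKM in CK, from 1.81 to 13.6 FPKM in MD and from 1.71 to 13.3 FPKM in HD. The denser libraries together averaged 3.59 to 28.9 times CK, with a median of 7.93. These members were low but present in CK, with 11 to 107 reads over the 3 libraries. At the other end, 6 members averaged 100 FPKM or more in the denser libraries, with means of 39.5 to 155 FPKM in CK, 124 to 431 FPKM in MD and 134 to 332 FPKM in HD. Their ratios over CK were smaller, 2.11 to 3.96 in MD and 2.15 to 4.51 in HD. The pseudocount in the rule asks a low gene for a larger minimum ratio of FPKM than an abundant one. The low members were also picked here by their CK values. On the log2(FPKM + 1) scale the median rise of the 11 low members was 1.64 in MD and 1.48 in HD. For the 6 abundant members it was 1.49 and 1.29. How far the selection accounts for the larger ratios of the low members was not tested.

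By mean CK level, 18 members were under 1 FPKM, 35 from 1 to under 10, 20 from 10 to under 100, and 1 at 100 or more. Members under 1 FPKM in CK were 24.3% of the set, against 4.53% of all tested genes. In the denser libraries the mean was at 1 to under 10 FPKM in 33 members, 10 to under 100 in 35, and 100 or more in 6. Those shares, 44.6%, 47.3% and 8.11%, stood beside 45.4%, 43.4% and 8.19% of all tested genes. At the denser plantings the members thus had levels like those of other tested genes, and in CK more of them were low. A CK level below that of the denser plantings follows from the rule.

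**Figure D4:**
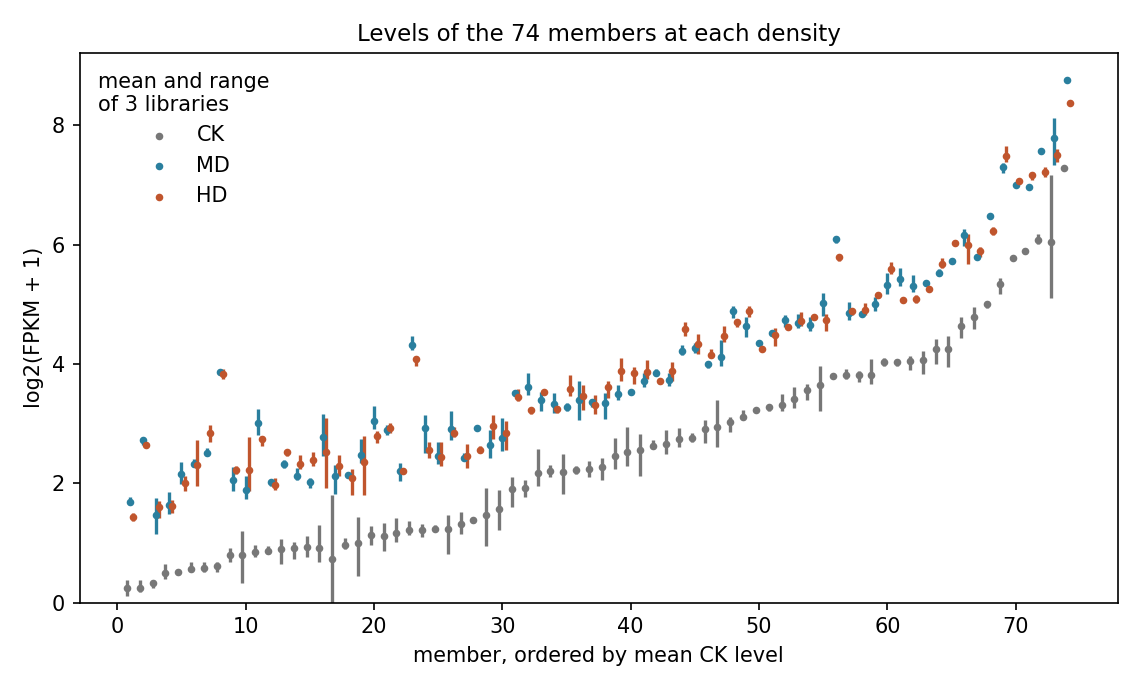
Level of each member on the log2(FPKM + 1) scale, with members ordered by their mean CK level in FPKM. Dots are the means of 3 libraries and lines their range, in grey for CK, blue for MD and orange for HD. MD and HD run together above CK over the whole range of levels, and the CK range nearly reaches the others in 2 members, ranks 24 and 17.

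The distance between the groups was judged by the lowest denser library over the highest CK library. The rule asks for a ratio above 1, which 14.1% of all tested genes had, and for rises of at least 1 unit. The sizes of the ratio therefore follow in part from the selection, and they were not counted in all tested genes. Among the members, the ratio had a median of 2.08. It reached at least 1.5 in 71 members, at least 2 in 45, at least 3 in 19 and at least 5 in 7. It was under 1.25 in 2 members, and in both of them CK2 was the high CK library. Rank 24 had 0, 2.49 and 0.319 FPKM in CK, 3.71, 3.96 and 2.51 FPKM in MD, and 3.78, 4.56 and 3.37 FPKM in HD, a ratio of only 1.01. It is the single member listed at 0 in any library, and its reads were 0, 17 and 2 in CK and 17, 25 and 13 in MD. Rank 17, the second most abundant member, had 33.3, 142 and 57.9 FPKM in CK, 277, 243 and 160 FPKM in MD, and 192, 184 and 167 FPKM in HD, a ratio of 1.12. Its CK reads, 328, 1641 and 615, so the high value of CK2 rests on many reads. Both members separate from CK only as the rule requires of every member, and where CK stands for them depends on the library.

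The spread between replicate libraries of the members was higher in CK than at the denser plantings, more so in relative terms than on the log2 scale. The median coefficient of variation came to 15.6% for CK, 8.13% for MD and 7.72% for HD, against 7.59%, 7.74% and 7.75% for all tested genes. On the log2(FPKM + 1) scale of the rule and the model, the members' median SD was 0.14 for CK, 0.11 for MD and 0.10 for HD. For all tested genes it was 0.095, 0.098 and 0.097. The median member had 193 reads over the 3 CK libraries, 616.5 in MD and 654.5 in HD. For all tested genes the medians were 782, 677 and 716 reads. Among the 35 members with a mean of 10 FPKM or more over all libraries, the median coefficients of variation were 10.7% in CK, 7.23% in MD and 5.76% in HD, against 4.95%, 4.91% and 5.03% for tested genes of that class. That class includes the denser libraries in its mean, so it does not match members and tested genes by CK level. In CK, 9 members had fewer than 30 reads in all. How far the low read numbers account for the CK spread was not tested.

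Within the limit of 0.4 that the rule sets, MD and HD were not equal in every member. HD was above MD in 38 members and below MD in 36, and the log2 difference (HD minus MD) ran from -0.39 to 0.39 with a median of 0.015. The absolute difference was under 0.1 in 23 members and at least 0.3 in 16. As a ratio of mean FPKM, HD over MD ran from 0.722 to 1.42. In 44 members the MD and HD libraries overlapped. All HD libraries lay above all MD libraries in 14 members, at 1.06 to 1.39 times the MD mean, and below them in 16 members, at 0.738 to 0.931 times the MD mean. These 30 members without overlap compare with 53.1% of all tested genes, and the rule fixes a low share by removing larger differences.

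The closest match between MD and HD was in rank 74, the smallest rise of all. It had 1.03, 1.68 and 1.1 FPKM in CK, 3.67, 3.09 and 4.07 FPKM in MD, and 3.77, 3.5 and 3.52 FPKM in HD. Its HD minus MD difference was 4.3e-05 on the log2 scale. Agreement of this kind comes from means over libraries that themselves differ by more. Among the 6 most abundant members, the 3 with the highest levels were lower in HD than in MD by 0.28 to 0.37 on the log2 scale, and the other 3 were higher in HD by 0.078 to 0.21.

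One model across all 19854 tested genes (limma on log2(FPKM + 1), calls at an adjusted p under 0.05) called all 74 members higher in MD than in CK, where 18% of tested genes were called higher. It also called all 74 higher in HD than in CK, where 25.4% of tested genes were. CK lay below all 6 other libraries in 14.1% of tested genes and, by the rule, in all members. Nothing can be read from these counts, since the members were chosen on the same differences. HD and MD differed in 15 members, 8 higher and 7 lower in HD, against 43.1% of tested genes called in either direction, and this too was limited by the rule. Without HD1 the number was 9, and 7396 of all tested genes were called, in place of 8551 with all libraries. The 8 that were higher in HD stood at 1.16 to 1.39 times the MD mean, and the 7 that were lower at 0.738 to 0.837 times.

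The edge of the set was not sharp. For MD minus CK, the nearest members inside the limit of 1 had 1.01, 1.01 and 1.03, and the nearest genes outside had 0.997, 0.994 and 0.992. There 13 genes were left out by under 0.05, and 6 were inside by under 0.05. For HD minus CK, the nearest values were 1.03, 1.03 and 1.04 inside, and 0.972, 0.966 and 0.917 outside. For the distance between HD and MD, they were 0.391, 0.389 and 0.376 inside, and 0.403, 0.414 and 0.419 outside. A single gene met all limits but not the separation from CK. It had 1.99, 3.39 and 1.5 FPKM in CK, 3.15, 8.0 and 6.84 FPKM in MD, and 7.07, 5.0 and 7.16 FPKM in HD, so that CK2 exceeded MD1. Of the 65 genes that were 1 unit higher at both denser plantings but at least 0.4 apart, HD was the higher of the denser plantings in 43 and the lower in 22. The mirrored rule, with all signs turned, gave 47 genes that stood lower at both denser plantings.

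Gene length is a readout that the rule did not use. Lengths recovered from the FPKM steps had a median of 904.5 nt in the members and 1152 nt in all tested genes. They ran from 189 to 5954 nt in the members, and 50 of the 74 were shorter than the median tested gene. Gb_06976 came out at 1076 nt and Gb_02979 at 582 nt. In 67 of the 74 members the length was a multiple of 3, beside 86.9% of the 21602 genes above 0 in every library. Shorter length was not particular to the members. The 65 genes raised at both denser plantings but unequally had a median of 639 nt, those raised only in MD by the same limit 957 nt (248 genes), those raised only in HD 942 nt (443 genes), and the 47 genes lowered alike 909 nt. Short genes collect fewer reads at a given FPKM, and the part of this in the lengths of genes with large differences was not tested.

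**Figure D5:**
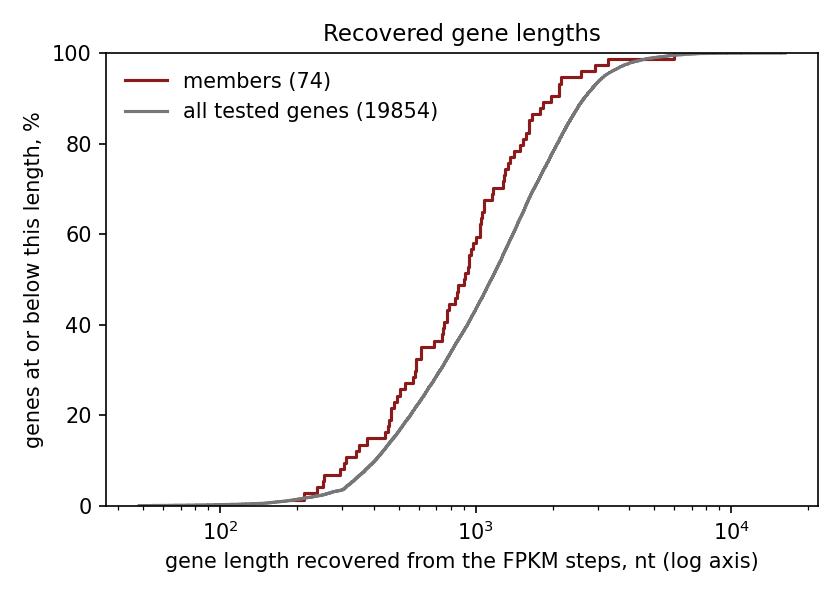
Share of genes at or below each recovered length, on a log axis, for the 74 members (dark red) and all 19854 tested genes (grey). The curve of the members lies to the left over most of its range, with medians of 904.5 and 1152 nt.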

How the data were processed

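Leaf RNA from 9 libraries was analysed, 3 each at CK, MD and HD, grouped by the sample titles. The deposited values are FPKM, per the file headers, with 1 column for each library title. CASAVA 1.8, TopHat2 and RSEM are listed, with no role, in the submitters' processing notes. The genome build is not given in the sources used here, nor is the annotation. Of 41309 genes, 13961 were at 0 in every library.

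Members were found by the rule given above on log2(FPKM + 1). The members, the named-gene rule (largest mean rise, and highest mean at the denser plantings) and the tests were chosen with earlier results of these data known. The identifiers could not be matched to the gene lists planned for pathways and leaf markers. One limma 3.58.1 model (R 4.3.3, intensity trend, Benjamini-Hochberg adjustment, no replicate block) was fitted to all 19854 tested genes. The code was also run on simulated reads with planted changes and an assumed spread, which does not measure its error rates on these data. A pseudocount of 1 understates changes of low genes.

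FPKM values are whole multiples of what 1 read is worth for a gene. From these steps, read numbers came out whole within 0.02 reads in 100% of the 21602 genes above 0 in every library, and in 0 of 1000 genes whose values were moved at random. Reads in genes summed to between 14703244 and 22445296 per library. Library sizes implied by the FPKM were 0.972 to 1.042 times these sums, so totals were not the divisor. Median-of-ratios scaling left the fold changes where they were. Among genes above 0 in every library, 86.9% of the recovered lengths were multiples of 3. Alternatives were other scalings, pseudocount, filters, limits of the rule, a replicate block, robust variances, limma-voom on recovered reads, and removal of single libraries.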

Additional observations from a re-analysis of the deposited data

How the results depend on the processing

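The number of genes that meet the rule was 74 and stayed within 1.5 times of that under the other scalings and filters on low values (57 to 83) and with single libraries left out (73 to 80, of which 64 to 71 were among the 74). It was 152 with a pseudocount of 0.1 and 157 with ratios of mean FPKM and no pseudocount (68 of the 74 in each), 16 with a difference of at least 1.5, and 43 with HD and MD within 0.2. In all, 48 members met the rule in every removal of 1 library, 59 under all 5 other scalings, and 46 under both. All members tested were called higher than CK in both comparisons under all 20 alternatives of the fit, which the selection on these differences favours. Over the same alternatives, 2947 to 4102 of all tested genes were called higher in MD and 4112 to 7076 in HD, the highest of these with equal summed FPKM. The median MD minus CK of the members was 1.54 with a pseudocount of 0.1, 1.31 with total-read scaling and 1.26 to 1.32 with single libraries left out. HD minus CK was 1.61, 1.40 and 1.29 to 1.38 under these, 1.37 with upper-quartile scaling and 1.44 with equal summed FPKM, which moved the median tested gene by 0.12. HD minus MD, 0.015 as reported, was 0.038 with upper-quartile scaling, 0.11 with equal summed FPKM, 0.057 with total-read scaling and -0.015 (without MD3) to 0.047 with single libraries left out, so the small lean to HD has no fixed sign. For Gb_06976, HD minus MD was -0.032 as reported, 0.078 with equal summed FPKM and 0.018 with total-read scaling, and lay between -0.073 and 0.017 with single libraries left out. Members called in HD minus MD were 9 to 15 with single libraries left out, 20 with equal summed FPKM, 22 with limma-voom on recovered reads, and 10 with a pseudocount of 0.1 or no minimum FPKM. Of all genes tested, 7337 to 8446 were called with single libraries left out, 9419 with equal summed FPKM and 9066 with limma-voom. The number was 8441 with a pseudocount of 0.1 and 8605 with no minimum FPKM, beside 8551 as reported. A replicate block gave 74, 74 and 16 called members for MD minus CK, HD minus CK and HD minus MD, in place of 74, 74 and 15. With the block, 3587, 4989 and 8520 of all tested genes were called. Libraries that share a number had correlations of -0.0069 to 0.073 in their deviations from group means. Those that do not had -0.052 to 0.043. Between CK and the denser libraries, the values for a shared number were all positive, from 0.019 to 0.057. Between MD and HD they were -0.0002, -0.0069 and 0.073. All were small, and the numbers were not treated as pairs. The causes of these moves were not tested. In CK, 9 members rest on fewer than 30 reads.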
